A study of Mus musculus with 6 samples.

Results

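The NFAT transcription factors and the phosphatase calcineurin were followed through 10 genes: Nfatc1, Nfatc2, Nfatc3, Nfatc4, Nfat5, Ppp3ca, Ppp3cb, Ppp3cc, Ppp3r1 and Rcan1. They are 10 of the 27975 gene names on the array, and every non-control probe that the scanner files name for 1 of them was taken, which gave 30 of 41174 probes. VIP-treated cells were compared with untreated cells, and in both groups CD4 T cells from spleens of the C57BL/6J strain had been activated with PMA and ionomycin, a phorbol ester that activates protein kinase C and a calcium ionophore. VIP, vasoactive intestinal peptide, is a neuropeptide whose receptors on T cells raise cAMP. Each of 6 biological replicates was a 2-colour Agilent array with the RNA of VIP-treated cells in one channel and that of untreated cells in the other. VIP RNA carried Cy5 on 3 arrays and Cy3 on 3. Mice of both sexes aged 6 to 32 weeks were used, 5 to 10 spleens were pooled per sample, and cells were isolated with CD4 magnetic beads. No label used here gives the dose of VIP or the time in culture. Every sample was activated, so the arrays show the effect of VIP on activated cells and not the effect of activation.

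Calcineurin is a calcium-dependent phosphatase made of a catalytic A subunit (Ppp3ca, Ppp3cb or Ppp3cc) and a regulatory B subunit (Ppp3r1). The calcium raised by ionomycin activates it, and it then removes phosphates from Nfatc1, Nfatc2, Nfatc3 and Nfatc4, which move into the nucleus and bind cytokine genes together with AP-1. Nfat5 belongs to the same family by its DNA-binding domain, but it responds to osmotic stress and lacks the calcineurin docking region. Rcan1 binds calcineurin and limits its activity. Transport and phosphorylation of NFAT proteins are not measured by an RNA array.

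Several members were read by more than 1 probe, at different points along the gene. A lone open reading frame on the sense strand is held by 12 of the 30 probes, each of which can be set beside another probe of its gene. Shown here are 6 of these 12, picked as examples. Capitals mark the complete codons of that frame, the probes are written 5′ to 3′, and the letters come from the array's own probe table. Positions are on mm9. An open frame describes the letters and does not show that the stretch is coding.
Ppp3cb A_51_P256818: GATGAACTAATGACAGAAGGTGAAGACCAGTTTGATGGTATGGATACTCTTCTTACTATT
Ppp3cc A_51_P245412: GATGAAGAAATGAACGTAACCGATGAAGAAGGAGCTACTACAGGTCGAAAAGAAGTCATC
Ppp3r1 A_52_P90442: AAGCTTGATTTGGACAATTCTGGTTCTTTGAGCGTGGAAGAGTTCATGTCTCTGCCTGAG
Ppp3r1 A_52_P90444: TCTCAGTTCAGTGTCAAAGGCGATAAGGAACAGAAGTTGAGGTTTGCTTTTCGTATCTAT
Nfatc2 A_52_P628171: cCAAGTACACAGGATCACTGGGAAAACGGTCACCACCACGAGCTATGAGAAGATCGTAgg
Nfat5 A_52_P254316: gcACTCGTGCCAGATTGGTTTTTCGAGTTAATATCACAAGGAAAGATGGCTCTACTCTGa
The Ppp3cb probe lies at chr14:21334722-21334781 on the minus strand. The Ppp3cc probe spans chr14:70624827-70634977 on the minus strand and crosses an intron. Of the Ppp3r1 probes, the first lies at chr11:17093001-17093060 on the plus strand, and the other spans chr11:17094237-17094688 and crosses an intron. The Nfatc2 probe lies at chr2:168361757-168361816 on the minus strand and the Nfat5 probe at chr8:109875407-109875466 on the plus strand. At least 1 open sense frame was present in 19 of the 30 probes, against 78.25% of all probes on the array. Exons and UTRs were not annotated here, because no mm9 gene models were used.

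Of the 30 probes, 25 were well above background on all 6 arrays in both channels and none was saturated on any array. A probe entered the test when it was well above background on at least 3 arrays in the VIP or in the untreated channel and had values in both dye orientations. By this rule 28 probes and all 10 genes were tested. The probes left out were Nfatc2 A_51_P195843, well above background on 2 VIP and 1 untreated channels, and Nfatc3 A_52_P432770, on 0 VIP and 1 untreated channels. The 3 tested Nfatc2 probes were themselves well above background on only 3 or 4 arrays, so their ratios rest largely on dim signal.

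Over the whole table limma called 483 of 22868 genes at an adjusted p under 0.05, of which 364 were higher and 119 lower after VIP. Spots well above background made up 56.9% to 99.0% of each VIP channel and 61.7% to 99.9% of each untreated channel. The top of both was replicate 6, where nearly every spot had this mark, and the other arrays reached at most 88.5% and 86.8%. All 8 CD4 T cell markers were detected in both channels of every array. The 2 CD8 genes, 5 of 7 B cell genes and 5 of 6 monocyte and macrophage genes were also detected there, and 1 of 6 tested genes of that last group was called, Cd14, higher after VIP by 0.57 on the log2 scale (adjusted p = 0.0033, 5 arrays). The other 5 had log2 ratios of -0.05 to 0.10 and did not pass. Of the CD4 T cell markers Cd28 (0.28, adjusted p = 0.012) and Cd2 (0.22, adjusted p = 0.016) were called, both higher. The summed level of the monocyte and macrophage genes ran from 13.22 to 14.48 on the log2 scale in VIP channels and from 12.89 to 14.46 in untreated channels, and its part in the results below was not tested. Replicate 5 stood apart in sex-linked transcripts. Its VIP over untreated log2 ratio was -3.29 for Xist, which is expressed from the inactive X chromosome of females. For the Y-linked Ddx3y and Eif2s3y it was 4.08 and 4.18. On the other arrays all 3 lay between -0.34 and 0.46. These ratios keep the dye effect. With it removed they were -2.80, 3.32 and 3.38 in replicate 5, and lay between -0.83 and 0.96 on the other arrays. By these transcripts the VIP channel of replicate 5 held more male and its untreated channel more female RNA. On this array VIP and the sex makeup of the pools therefore cannot be told apart. Replicate 5 also had 13.5% of its spots marked as outliers. Values without it are given for the calls that change and for the brightest probes that move by over 1.5 times or turn sign.

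No member gene passed the threshold. In these bulk samples fewer cells of a type and less RNA per cell cannot be told apart. The count was 0 of 10 genes, against 2.11% of all genes tested, and 0 of 28 probes, against 2.15% of all probes tested (1.61% higher and 0.536% lower). At an unadjusted limma p under 0.05 there were 4 genes (Ppp3r1, Ppp3ca, Ppp3cb and Nfatc4) and 5 probes. Those probes were 17.9% of the 28, and 12.9% of all genes and of all probes had such a p. By their brightest probes 2 genes lay above 0 and 8 below, with a median log2 ratio of -0.05, against 0.00 over all genes. Of the 28 tested probes 13 lay above 0 and 15 below, with a median of -0.0025, against -0.00032 over all probes. The median absolute log2 ratio of the 10 genes was 0.08, that of all genes 0.04 and that of the 483 called genes 0.30. The 95% interval of a member reached 0.12 to either side of its ratio at the median. Taken over the brightest probes, these intervals ran from -0.51 to 0.34, which does not show that the genes stayed the same. They are not adjusted for the number of genes and hold for this processing only. With Agilent's own log ratio Nfatc2 had -0.35, outside its interval of -0.14 to 0.05.

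**Figure D1:**
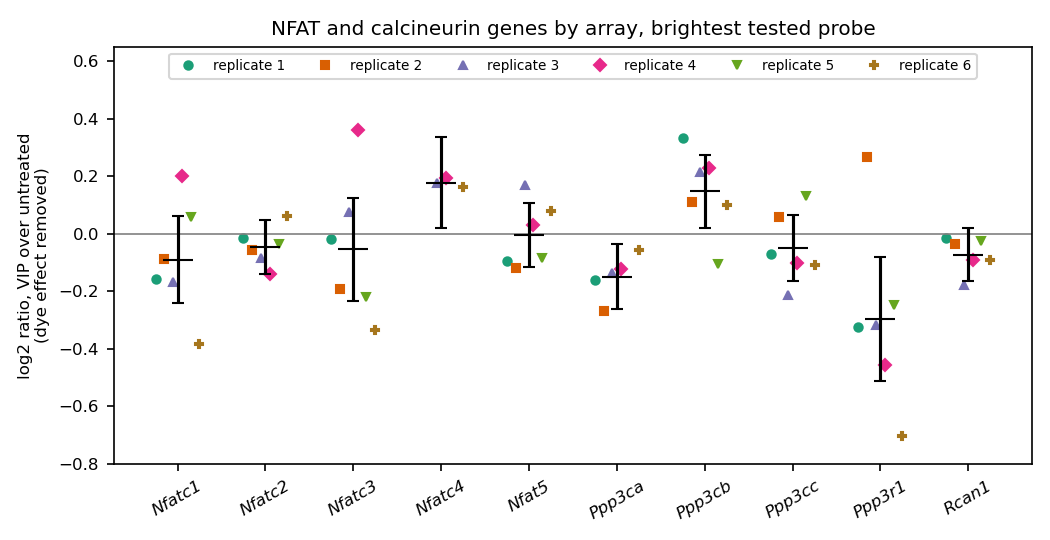
Log2 ratio of VIP over untreated for the brightest tested probe of each gene, with the dye effect removed. Points are arrays, and bars are the fitted ratio with its 95% interval. The widest scatter is that of Ppp3r1, from -0.70 to 0.27, and that of Rcan1 runs from -0.18 to -0.01.

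Ppp3r1, the regulatory B subunit, had the lowest p of the members. Its brightest probe, A_52_P474379, had log2 intensities of 9.40 to 10.84 in the VIP channels (median 10.06), against 9.52 to 11.93 in the untreated channels (median 10.11). The channels overlapped over most of their range. With the dye effect removed, the log2 ratios of replicates 1 to 6 were -0.33, 0.27, -0.32, -0.46, -0.25 and -0.70. Replicate 2 was alone above 0. The fitted log2 ratio was -0.30 ± 0.098 (SE, n = 6 arrays; limma adjusted p = 0.22). The dye effect of this probe, 0.39 on the log2 scale, was larger than its VIP ratio. Within the 3 slides the ratio was -0.03, -0.39 and -0.47. Without replicate 2 it was -0.44 and passed the threshold (adjusted p = 0.0080), the only setting of 21 in which Ppp3r1 did so.

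The other Ppp3r1 probes, both printed above and both further towards the 5′ end, had smaller ratios. They were -0.08 ± 0.066 for A_52_P90442 and -0.07 ± 0.068 for A_52_P90444 (SE, n = 6 arrays). Their ratios on single arrays fell on both sides of 0, and replicate 4 was the lowest for each, at -0.35 and -0.39. The brightest probe, by contrast, was lowest in replicate 6. It lies at chr11:17100321-17100380 and is 1 of 2 member probes with the letters AATAAA, a common polyadenylation signal, on the sense strand. The other is Ppp3cb A_52_P306396. These letters occur in 4.78% of all probes on the array, searched on the sense strand only.

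Among the catalytic A subunits, Ppp3ca and Ppp3cb had ratios of opposite sign. Ppp3ca was read by 1 probe, A_51_P213532, with log2 intensities of 11.42 to 12.18 in the VIP channels and 11.79 to 12.10 in the untreated channels. Its spot was marked as an outlier on replicate 5, which left 5 arrays. The ratio lay below 0 on all 5, between -0.27 and -0.06, with a fitted value of -0.15 ± 0.050 (SE, n = 5 arrays; limma adjusted p = 0.23). With the marked spot kept the ratio was also -0.15 (adjusted p = 0.16 over all probes).

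Ppp3cb A_52_P457382 had log2 intensities of 11.92 to 12.26 in the VIP channels (median 12.02), against 11.51 to 12.24 in the untreated channels (median 11.91). Replicates 1, 2, 3, 4 and 6 lay above 0, between 0.10 and 0.33, and replicate 5 lay below, at -0.11. The fitted log2 ratio was 0.15 ± 0.057 (SE, n = 6 arrays; limma adjusted p = 0.30). Without replicate 5 it was 0.21 (adjusted p = 0.027), past the threshold. The other 3 Ppp3cb probes were nearer 0 with all arrays. A_51_P256818, the open-frame probe printed above, had -0.00 ± 0.072, A_51_P412191 had 0.05 ± 0.046 and A_52_P306396 had 0.04 ± 0.043 (SE, n = 6 arrays each). Without replicate 5 they had 0.09, 0.07 and 0.03, and none passed.

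Ppp3cc, the third A subunit gene, did not pass at any probe. The brightest, A_51_P245405, had log2 intensities of 9.98 to 10.55 in the VIP channels and 10.03 to 10.40 in the untreated channels. Its log2 ratio was -0.05 ± 0.052 (SE, n = 6 arrays; limma adjusted p = 0.78). The intron-crossing probe A_51_P245412 had -0.06 and A_52_P408540, with 5 arrays, had 0.00. Without replicate 5 the ratios were -0.10, -0.09 and 0.00, and none passed.

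Rcan1, the calcineurin inhibitor, varied least between arrays among the brightest probes with 6 values, with an SD of the dye-adjusted log2 ratio of 0.06, and Ppp3r1 varied most, with 0.32. A_52_P617327 had log2 intensities of 10.68 to 11.31 in the VIP channels and 10.77 to 11.39 in the untreated channels. Its ratio lay below 0 on all 6 arrays, between -0.18 and -0.01, with a fitted value of -0.07 ± 0.042 (SE, n = 6 arrays; limma adjusted p = 0.53). The intron-crossing probe A_51_P182116 had -0.09 ± 0.052, with replicates 2 and 5 above 0. Of the 24 tested member probes with 6 values, only this brightest Rcan1 probe and Nfatc2 A_51_P195849 kept 1 sign on all arrays, and 11.3% of all tested probes with 6 values did so.

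**Figure D2:**
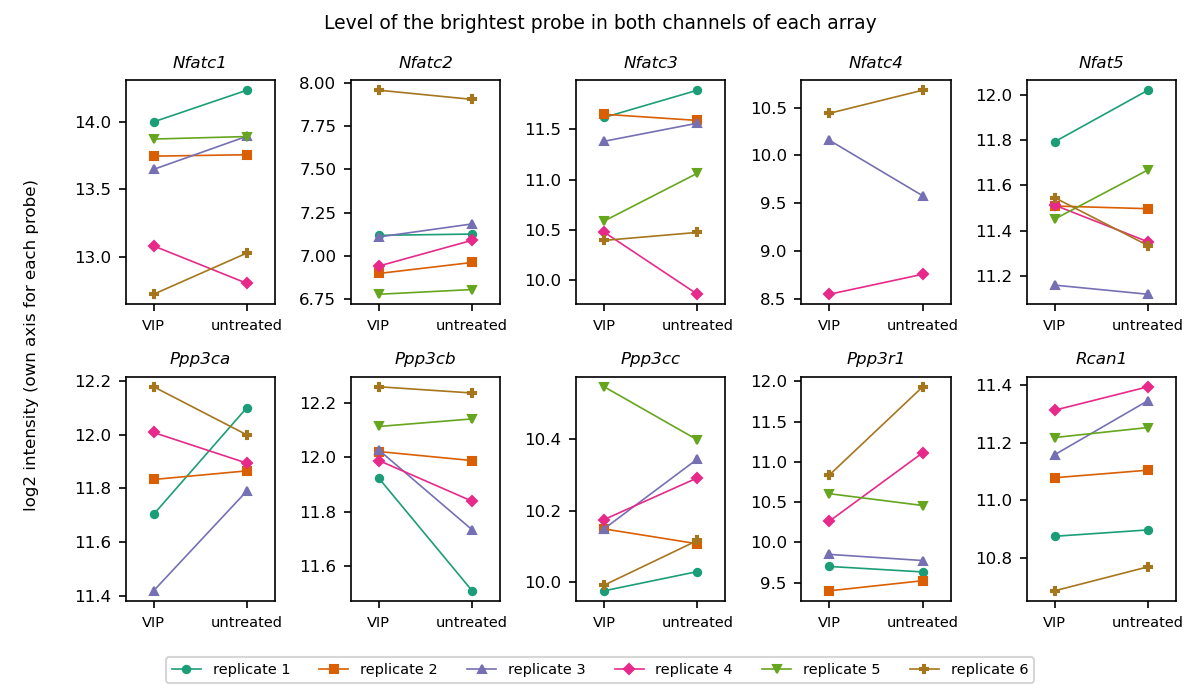
Normalised log2 intensity of the brightest tested probe of each gene in the VIP channel (left) and the untreated channel (right), with a line for each array. VIP and untreated channels overlap for every gene: Nfatc3 spans 10.40 to 11.65 in VIP channels and 9.86 to 11.89 in untreated channels. Levels are not comparable between probes.

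Nfatc1 is the NFAT factor whose short isoform T cells induce through NFAT itself. Its brightest probe, A_51_P517870, had a log2 intensity of 13.51 ± 0.50 in the VIP channels, against 13.60 ± 0.56 in the untreated channels (SD, n = 6 arrays). The lowest and median values were 12.72 and 13.70 after VIP and 12.80 and 13.82 without it. The ratio was above 0 in replicates 4 and 5 and below 0 in the others, from -0.38 to 0.20. The fitted value was -0.09 ± 0.068 (SE, n = 6 arrays; limma adjusted p = 0.67). The other probe, A_51_P220135, nearer the 5′ end, had the opposite sign, 0.13 ± 0.062 (adjusted p = 0.41 over all probes), with 5 of 6 arrays above 0. With arrays centred on their median instead of loess, the brightest probe turned to 0.01.

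For Nfatc2, a main NFAT factor of resting T cells, the log2 ratio was -0.05 ± 0.042 at A_52_P628171 (SE, n = 6 arrays; limma adjusted p = 0.75). Its other tested probes had 0.03 and -0.06. With Agilent's own log ratio A_52_P628171 had -0.35, and with normexp offset 0 it had -0.12; neither passed. Nfatc3 A_51_P147085 had log2 intensities of 10.40 to 11.65 in the VIP channels and 9.86 to 11.89 in the untreated channels. Its ratio ran from -0.33 in replicate 6 to 0.36 in replicate 4, with a fitted value of -0.05 ± 0.081 (SE, n = 6 arrays; limma adjusted p = 0.86). The sign turned without replicate 6 (0.02), and without replicate 5 the ratio was -0.01. Nfatc3 A_52_P333419 had 0.01.

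Nfatc4 had the highest ratio of the brightest probes, and it rested on few arrays. At A_52_P342159 the spot was marked as an outlier on 3 arrays. In replicates 3, 4 and 6 the log2 intensities were 10.16, 8.55 and 10.44 in the VIP channels, against 9.58, 8.76 and 10.68 in the untreated channels. The fitted log2 ratio was 0.18 ± 0.067 (SE, n = 3 arrays; limma adjusted p = 0.32), with a dye effect of 0.40. With only replicate 3 carrying VIP in Cy5, its dye-adjusted value equals the fitted ratio by construction. With the marked spots kept the ratio was 0.11, and A_52_P622614, measured on all 6 arrays, had 0.10 ± 0.057.

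Nfat5 was read by 6 tested probes, none of which passed with all arrays. The brightest, A_52_P608444, lies furthest towards the 3′ end and had log2 intensities of 11.16 to 11.79 in the VIP channels and 11.12 to 12.02 in the untreated channels. Its log2 ratio was -0.00 ± 0.050 (SE, n = 6 arrays; limma adjusted p = 0.99). The 3 probes nearest the 5′ end, between chr8:109848852-109848911 and chr8:109852971-109853030, had 0.08 ± 0.045, 0.18 ± 0.073 and 0.13 ± 0.096 (SE, n = 6 arrays each). Next along the gene, A_52_P254316, printed above, had -0.02 ± 0.066 and A_51_P135309 had 0.05 on 4 arrays.

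Replicate 5 was the lowest array at all 3 of these 5′ probes and at A_52_P254316. At A_52_P177904 its ratio was -0.05, with 0.01 to 0.18 on the other arrays. At A_52_P54486 its ratio was -0.17, with 0.05 to 0.40 on the other arrays. At A_52_P14728 it was -0.40, with -0.03 to 0.50 on the others. Without replicate 5 both passed the threshold over all probes, with log2 ratios of 0.27 (adjusted p = 0.015) and 0.26 (adjusted p = 0.019). A_52_P177904 then had 0.11, A_52_P254316 had 0.05 and the brightest Nfat5 probe had 0.02 (adjusted p = 0.93 over all probes). The difference between the 5′ and 3′ probes was not tested, and the gene model was not used to say which transcripts each probe reads.

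**Figure D3:**
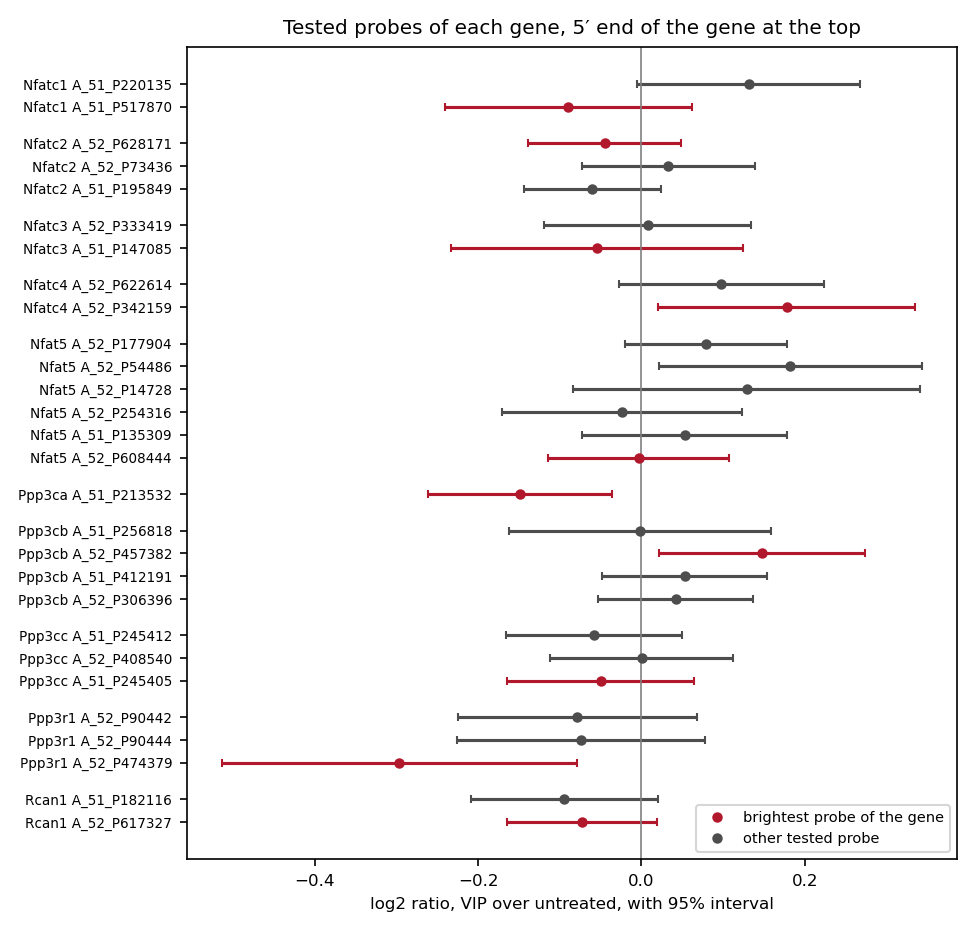
Fitted log2 ratio of VIP over untreated with its 95% interval for the 28 tested probes, ordered within each gene from the 5′ end (top) to the 3′ end. Red marks the brightest probe of the gene. The intervals of 23 probes include 0, and those that do not are at Ppp3r1, Ppp3ca, Ppp3cb, Nfatc4 and Nfat5, 1 probe each.

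Probes of the same gene often lay on both sides of 0. This was so for 6 of the 9 genes with more than 1 tested probe, namely Nfatc1, Nfatc2, Nfatc3, Nfat5, Ppp3cb and Ppp3cc. Nfatc4 kept a positive sign at both tested probes, and Ppp3r1 and Rcan1 kept a negative sign at all of theirs.

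**Figure D4:**
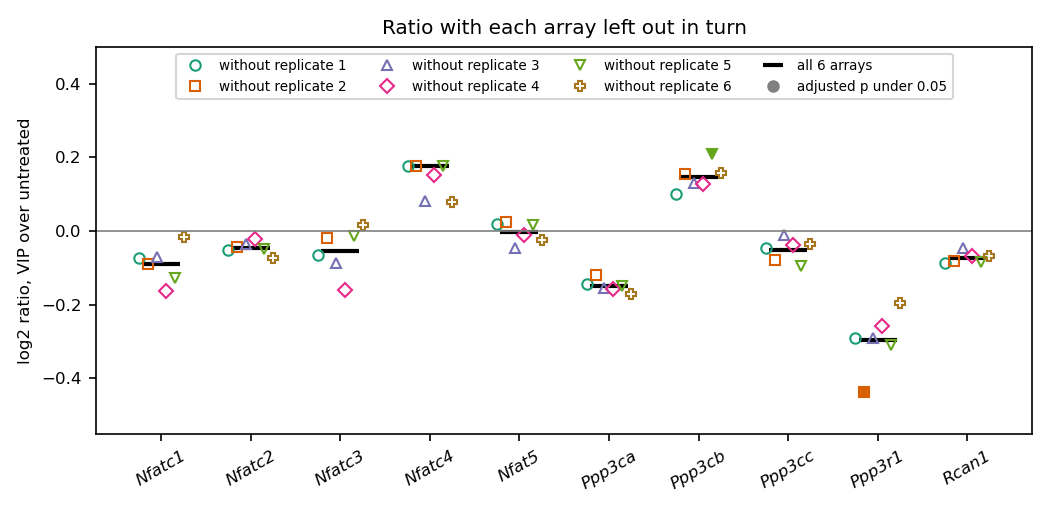
Log2 ratio of VIP over untreated for the brightest tested probe of each gene with all arrays (bar) and with each array left out (symbols, filled where the limma adjusted p is under 0.05). Ppp3cb passes without replicate 5 (0.21) and Ppp3r1 without replicate 2 (-0.44), and no other symbol is filled. Without replicate 3, 4 or 6 Nfatc4 is read by its other probe.

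By root mean square difference of the dye-adjusted ratios over the 6 arrays, the genes most like Ppp3r1 of 18595 compared included Actr2 (0.144), a subunit of the actin-nucleating Arp2/3 complex, and Fbxw11 (0.162), a subunit of an SCF ubiquitin ligase. Their log2 ratios were -0.33 (limma adjusted p = 0.11) and -0.21 (adjusted p = 0.27), and neither passed the threshold.

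The genes around the members were described by lists. Of the calcineurin partners and inhibitors 13 of 14 were tested, and 0 were higher and 0 lower, against 1.59% higher and 0.52% lower over all genes. Their median log2 ratio was 0.02. Ppia (cyclophilin A, which binds cyclosporin; 0.10, adjusted p = 0.38) and Chp1 (a calcineurin B-like protein; 0.07, adjusted p = 0.53) were among those with the smallest p.

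Of the kinases, scaffolds and carriers that act on NFAT 18 of 20 were tested. Again 0 were higher and 0 lower, against 1.59% and 0.52% over all genes, with a median of -0.01. Csnk1d, a casein kinase 1 isoform, came nearest to the threshold at -0.23 (limma adjusted p = 0.069), below 0 on each of 5 arrays. Csnk1a1, another casein kinase 1 isoform, had 0.15 (adjusted p = 0.24) and lay above 0 on all 6. Dyrk4, of a kinase family that includes NFAT kinases, had -0.08 (adjusted p = 0.43). Without replicate 5 Kpnb1, an importin, passed at -0.35 (adjusted p = 0.0014), there read by another probe than with all arrays, where it had -0.17 on 3 arrays.

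Of the nuclear partners of NFAT all 20 were tested, and 3 were higher and 0 lower, against 1.59% and 0.52% over all genes. The median was 0.06. Fos, an AP-1 subunit, had log2 ratios of 0.57 to 0.93 on the 6 arrays. Fosb, its relative, had 0.25 to 0.50 and Rel, an NF-kB subunit, had 0.15 to 0.43. The fitted values were 0.71 (limma adjusted p = 0.00028), 0.39 (adjusted p = 0.0025) and 0.26 (adjusted p = 0.028), and Rel passed in only 9 of 21 alternative settings. Runx1 (0.19, adjusted p = 0.16), Mef2d (-0.14, adjusted p = 0.22) and Fosl2 (0.24, adjusted p = 0.24, 4 arrays) did not pass. Without replicate 5 Runx1 passed as well (0.24, adjusted p = 0.025).

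Among 30 NFAT target genes of activated T cells, 4 were higher and 0 lower after VIP, against the same 1.59% and 0.52%, and 26 did not pass. The median was 0.08. Nr4a3, an orphan nuclear receptor, lay at 0.44 on the log2 scale (limma adjusted p = 0.0039). The cytokines Il3 and Csf2 had 0.41 (adjusted p = 0.0039) and 0.28 (adjusted p = 0.015), and passed in 18 and 12 of 21 alternative settings. Nr4a1, a relative of Nr4a3, had 0.19 (adjusted p = 0.036), passed in 6 of 21 alternative settings, and had an adjusted p of 0.052 without replicate 5. Egr2 (-0.30, adjusted p = 0.053) and Egr3 (-0.20, adjusted p = 0.072), zinc finger factors of T cell activation and anergy, lay below 0 on all 6 arrays, and Tnfsf11, the cytokine RANKL, had 0.26 (adjusted p = 0.070). Without replicate 1, 3, 4 or 6 the number of higher targets was 2, and without replicate 5 it was 6. Without replicate 5 Egr2, Egr3 and Tnfsf11 passed, at -0.32, -0.22 and 0.31, as did Nr4a2 (0.34) and Ptgs2 (0.40).

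Of 14 NFAT targets of the anergy programme 13 were tested. Of these 0 were higher and 0 lower, against 1.59% and 0.52% over all genes, with a median of -0.03. Nrp1, a semaphorin and VEGF co-receptor, had 0.17 (limma adjusted p = 0.13), Rnf128, an E3 ubiquitin ligase, had 0.18 (adjusted p = 0.14) and Dgka, a diacylglycerol kinase, had 0.09 (adjusted p = 0.40). Without replicate 5 Cblb, another E3 ubiquitin ligase, passed at 0.41 (adjusted p = 0.00091), where it had 0.24 with all arrays.

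**Figure D5:**
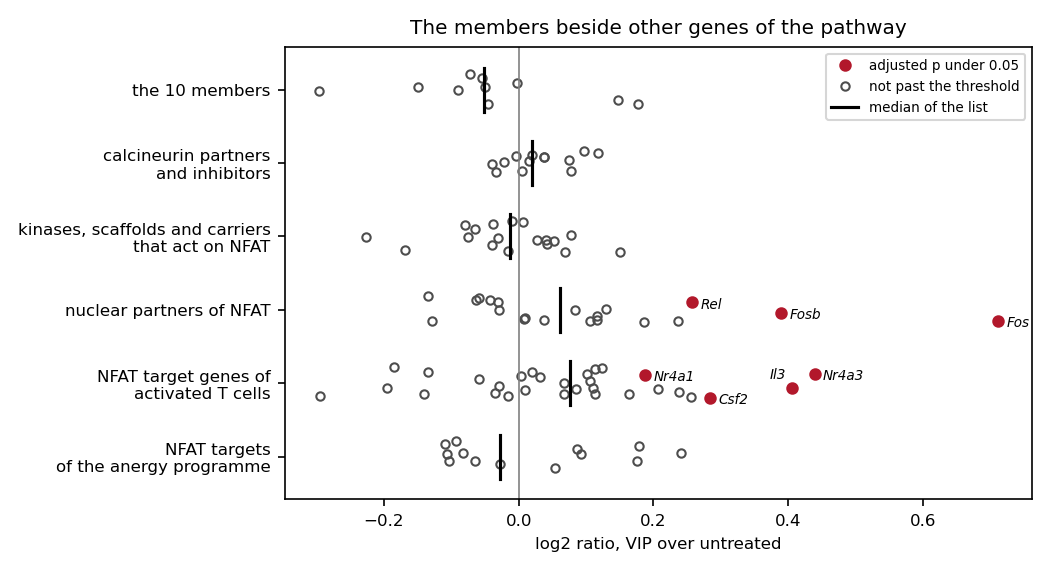
Log2 ratio of VIP over untreated for the 10 members, by their brightest tested probe, and for the tested genes of each list. Each circle is a gene, filled circles have a limma adjusted p under 0.05, and vertical bars are list medians. Filled circles appear among the nuclear partners (3) and target genes (4), and the members lie between -0.30 and 0.18.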

How the data were processed

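The authors deposited Agilent Feature Extraction 9.5.1.1 output per array, per the file headers: mean and background intensities per spot on a linear scale, quality flags, and a log10 ratio of Cy5 over Cy3 (log ratio). The deposited series table holds the same log10 ratios, turned to VIP over untreated, within 4.47e-06.

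Here, intensities were background-corrected with limma 3.58.1 in R 4.3.3 (normexp, offset 50) and loess-normalized within arrays, with 1639 control spots at weight 0. Outlier-marked spots were left out and spots of a probe averaged. The log2 ratio was fitted with terms for VIP and dye (lmFit, eBayes), so each array is its own pair. Adjusted p is Benjamini-Hochberg over 22868 genes, each by its brightest tested probe, or separately over 33233 probes. SE is limma's moderated one. The number of arrays limits precision. Levels are log2 intensities after loess and between-array quantile scaling of mean intensity (Aquantile). The scripts were tested on simulated data. Gene names were updated by accession or synonym where the RefSeq table allowed.

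Members and lists were chosen with earlier results of these data known. Named were all members, the called genes of each list (at most 6), the 3 others with the smallest p, and the 3 genes most like the member with the smallest p. List genes that passed without replicate 5 but not with all arrays were named too, so these were picked by that result. Some of the genes this rule names are not reported here. VIP was in Cy5 at slide position 2 and in Cy3 at position 4, so dye orientation and position cannot be told apart. Nothing in the labels says that replicates were separate cultures beyond calling them biological.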

Additional observations from a re-analysis of the deposited data

How the results depend on the processing

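No member gene or probe was called in the reported fit. The 21 alternatives run for genes and the 19 run for probes gave 0 called members too, except leaving out replicate 2 or replicate 5. Agilent's log ratio and the series table hold the same ratios, yet both are counted in every tally of settings. Without replicate 2, 1 member gene and 1 member probe passed, at Ppp3r1, beside 207 higher and 57 lower of all 22843 genes. Without replicate 5, 1 member gene and 3 member probes passed, at Ppp3cb and Nfat5, beside 568 higher and 254 lower of 22763 genes. With all arrays these were 364 and 119 of 22868 genes. The Nfatc1 ratio turned to 0.011 with median centring and 0.021 as the mean of its probes. The Nfat5 ratio turned to 0.041 and 0.060 under the same settings, and to 0.0020 with scaled arrays. Without 1 array Nfat5 ran from -0.047 to 0.026 and Nfatc3 from -0.16 to 0.015. The Ppp3r1 ratio ran from -0.44 to -0.15 over all settings. Causes were not tested.

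Of all genes, 364 were higher and 119 lower after VIP, and of all probes 535 and 178. With normexp offset 0 the genes were 72 and 9 (88.9% higher, against 75.4%) and the probes 108 and 9. With median centring they were 112 and 8 (93.3%) and 173 and 9. With Agilent's log ratio, and with the series table of it, they were 12 and 0 (100%) and 38 and 0. Without a dye term they were 151 and 35, and 227 and 48. Lower genes were 76 with marked spots kept, 190 with array weights (291 lower probes), 206 with separate channels and 224 at an adjusted p under 0.1. Leaving out 1 array gave 162 to 568 higher and 31 to 254 lower genes, and 243 to 839 and 47 to 348 probes, the top of each without replicate 5.

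Higher nuclear partners, 3 in the reported fit, were 1 with normexp offset 0 and 0 with Agilent's log ratio or the series table. Higher NFAT target genes, 4 in the reported fit, were 0 under these 3 settings, 2 with median centring or no dye term, and 2 to 6 without 1 array. Lower NFAT target genes, 0 in the reported fit, were 1 with scaled arrays, the slide block or separate channels, 2 with array weights and 0 to 2 without 1 array. Lower kinases, scaffolds and carriers, 0 in the reported fit, were 1 with scaled arrays, the slide block, separate channels or the mean of probes, and 0 to 1 without 1 array. Higher anergy targets were 0 to 1 without 1 array. Dim spots limit Nfatc2, and marked spots limit Nfatc4.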
